A study of Mus musculus with 20 samples.

Results

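The 8 genes described here, Hand1, Hand2, Gata4, Gata6, Foxf1, Isl1, Prrx1 and Nkx2-5, encode transcription factors of the lateral plate and cardiac mesoderm. They were taken by gene name from the 54446 gene IDs of the deposited tables, and each name matched 1 gene ID. Their RNA was measured in pools of mouse embryonic stem cell aggregates of the line F1G4, which in every group carried both reporters, T::H2B-mCherry (T is Brachyury) and Sox2::H2B-Venus. All aggregates had received a 3 µM pulse of CHIR99021, an activator of WNT signalling, after 48 h. The 96h group was collected at 96 h with 10 structures pooled per library. The 4 other groups were collected at 120 h with 6 structures per library. Gastruloid structures were grown without Matrigel, a gel made of basement membrane. TLSMG structures were grown in Matrigel, TLSMGC structures in Matrigel with further CHIR99021, and TLSMGCL structures in Matrigel with CHIR99021 and LDN, a blocker of BMP receptors. Each group had 3 libraries, labelled as biological replicates. All came from 1 cell line, and structures with an asymmetric pole had been picked for pooling, so the values describe picked pools.

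In the gastrulating embryo, BMP signalling directs mesoderm towards lateral plate fates, while mesoderm shielded from BMP by inhibitors such as Noggin forms somites. The lateral plate gives rise to the heart, the limb buds and the wall of the gut and of the vessels. GATA4, GATA6, HAND1, HAND2, ISL1 and NKX2-5 act in heart progenitors, FOXF1 marks the layer that surrounds the gut, and PRRX1 marks loose mesenchyme, that of the limb buds included. Several of these genes also work elsewhere: Gata4 and Gata6 in endoderm, and Isl1 in motor and sensory neurons. In a bulk sample, fewer cells of a type and less RNA per cell cannot be told apart.

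Values are TPM, a share of all transcripts in a library, corrected for gene length. Differences between groups are fitted differences of log2(TPM + 1), given with their standard error (SE) and with a p-value from limma adjusted by the Benjamini-Hochberg method over all 14290 genes with a mean of at least 1 TPM. A gene was called when the adjusted p was under 0.05. Of the 8 genes, 6 were tested. Hand2, with a mean of 0.592 TPM over the 15 libraries, and Nkx2-5, with 0.0902 TPM, were not. Hand1 was tested at a mean of 1.02 TPM, which it reached only through 96h replicate 1. Over the 12 libraries at 120 h alone, Hand1 and Isl1 averaged under 1 TPM, so their presence among the tested genes already rests on levels at 96 h, and counts over the tested members are descriptions.

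Relative depth ran from 3.12 to 6.84 over the libraries, 13688 to 14494 genes per library reached 1 TPM, and libraries of one group correlated at r = 0.985 to 0.991 across genes. Low values are imprecise: by a figure taken per library, a mean coverage of 1 read over a gene's exons was worth 0.327 to 0.664 TPM. Single genes departed from this figure. Gata4 had a coverage of 1.54 at 6.84 TPM in 96h replicate 1, and of 0.490 at 1.48 TPM in TLSMG replicate 3. Its coverage was under 1 read in every library but 96h replicate 1. Of the 15 libraries, 96h replicate 1 had the most genes at least 2 times above both other libraries of its group. Genes below both others were not counted. In 96h replicate 1, 128 of the 14290 tested genes (0.896%) lay at least 2 times above both other 96h libraries. Hand1, Gata4 and Gata6 were among these, and so was Hand2 among the untested genes. The next was TLSMGC replicate 2, with 117 such genes (0.819%), Gata4 and Isl1 included and Hand2 besides. Values without these libraries are given beside the results that they move most.

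Foxf1 stepped down from a mean of 10.3 TPM at 96 h to 6.13 TPM in TLSMG, 3.24 TPM with CHIR99021 and 0.701 TPM with CHIR99021 and LDN. Gata6 and Isl1 were highest at 96 h (10.4 and 3.56 TPM) and, among the 120 h groups, highest in TLSMG (4.40 and 2.401 TPM). Prrx1 ran the other way, lowest in Gastruloid and 96h (1.31 and 1.34 TPM) and highest in TLSMGC (15.4 TPM). Hand1, Hand2 and Gata4 were high in 1 library at 96 h and low in the rest, and Nkx2-5 stayed under 1 TPM in every library.

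**Figure D1:**
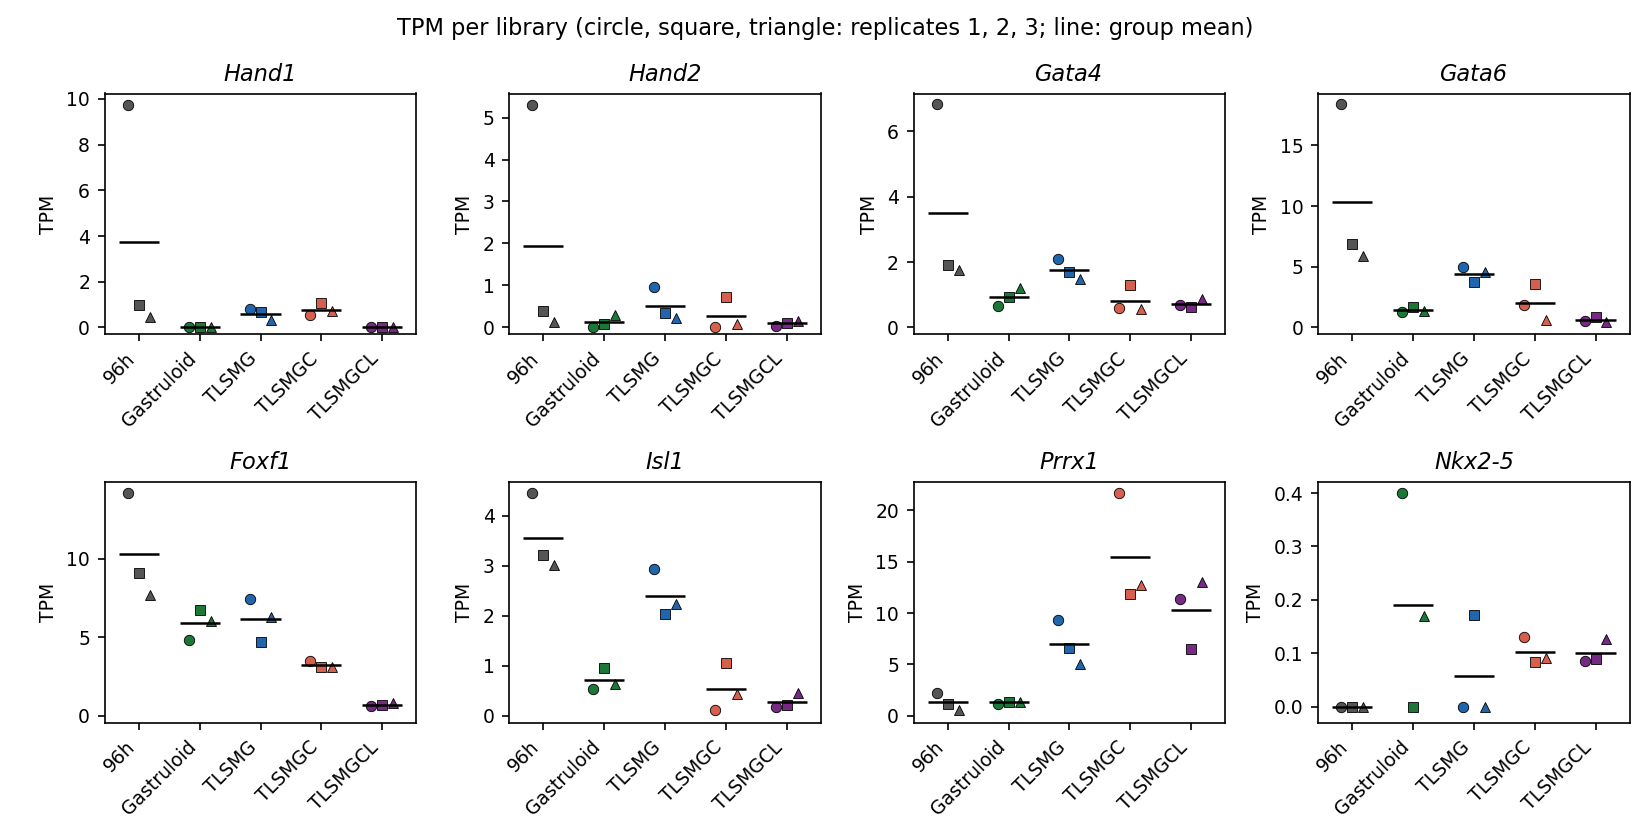
TPM (vertical axis, linear, own scale per panel) of each of the 8 genes in the 15 libraries, by group on the horizontal axis, with circles, squares and triangles for replicates 1, 2 and 3 and a line at the group mean. The circle of 96h replicate 1 lies at 9.75 TPM for Hand1 and 18.4 TPM for Gata6, apart from its group, while the Foxf1 points step down to 0.626 to 0.793 TPM in TLSMGCL.

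The calls are given by comparison, each beside the share of all 14290 tested genes called in the same way. From 96h to Gastruloid, 5 of the 6 tested members were lower and 0 higher, where 41.2% of all genes were called, 20.5% lower and 20.8% higher. From 96h to TLSMG, 1 was higher (Prrx1) and 1 lower (Foxf1), where 46% of all genes were called, 33.5% higher and 12.5% lower. In TLSMG against Gastruloid, 3 were higher (Gata6, Isl1 and Prrx1) and 0 lower, where 39.3% were called, 31.5% higher and 7.87% lower. In TLSMGC against TLSMG, 1 was higher (Prrx1) and 2 lower (Foxf1 and Isl1), where 40.9% were called, 10.4% higher and 30.5% lower. In TLSMGCL against TLSMG, 0 were higher and 3 lower (Foxf1, Gata6 and Isl1), where 44.9% were called, 9.31% higher and 35.6% lower. In these last 3 comparisons the members' share of calls, 3 of 6, lay near that of all genes. In TLSMGCL against TLSMGC, 1 member was called, Foxf1, which was lower, where 1.18% of all genes were called, 0.406% higher and 0.777% lower.

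The other pairs of groups were read for the order of levels. In TLSMGC against 96h, 1 member was higher (Prrx1) and 4 were lower, where 40.7% of all genes were called, 20.6% higher and 20.1% lower. In TLSMGCL against 96h, 1 was higher (Prrx1) and 5 were lower, where 39.5% were called, 17.4% higher and 22.1% lower. In TLSMGC against Gastruloid, 1 was higher (Prrx1) and 1 lower (Foxf1), where 42.2% were called, 21% higher and 21.2% lower. In TLSMGCL against Gastruloid, 1 was higher and 1 lower, again Prrx1 and Foxf1, where 36.1% were called, 15% higher and 21.1% lower. By the moderated F test, 6 of 6 tested members differed among the 5 groups, as did 73.5% of all tested genes, and 4 of 6 (Gata6, Foxf1, Isl1 and Prrx1) among the 4 groups at 120 h, as did 62.7%. The comparisons share groups, so their counts are not independent of each other.

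These counts moved with single libraries. Without 96h replicate 1, the members called became 5 of 6 in TLSMG against Gastruloid (beside 39.1% of all genes called), 5 of 6 in TLSMGC against TLSMG (40.3%), 5 of 6 in TLSMGCL against TLSMG (44.5%), 2 of 6 in TLSMGCL against TLSMGC (1.34%), and 1 of 6 in TLSMG against 96h (40.5%). The count for TLSMG against 96h was also 1 without TLSMG replicate 2 and rose to 4 without 96h replicate 3. Without Gastruloid replicate 1, the count for Gastruloid against 96h was 3. Among all genes, the 169 called between TLSMGCL and TLSMGC became 56 without TLSMGC replicate 2, 70 without TLSMGCL replicate 1 and 78 without TLSMGCL replicate 3.

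**Figure D2:**
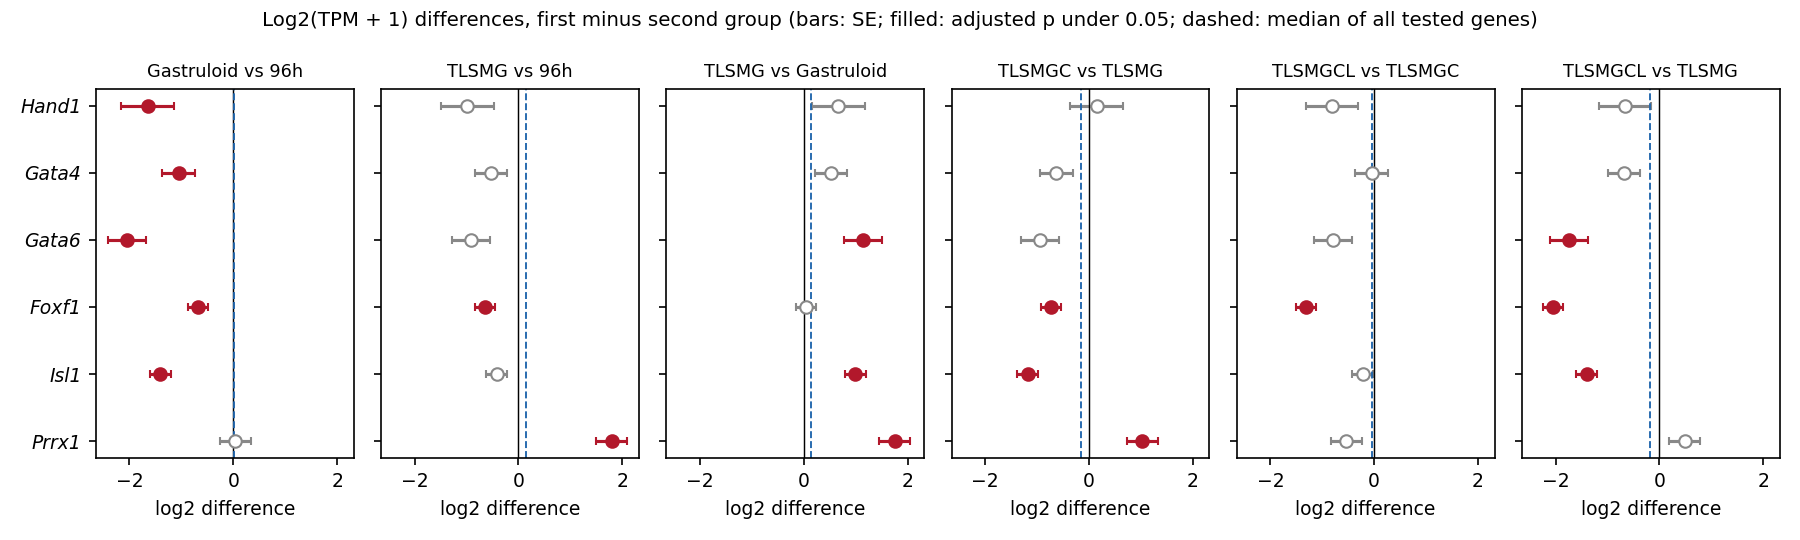
Fitted log2(TPM + 1) differences of the 6 tested genes in 6 comparisons, first group minus second on the horizontal axis, with bars for 1 SE, filled points for an adjusted p under 0.05 and a dashed line at the median of all 14290 tested genes. Foxf1 alone is filled in the panel of TLSMGCL against TLSMGC, at -1.32, and Prrx1 is the filled point on the right in the panel of TLSMGC against TLSMG, at 1.03.

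Promoter sequence was at hand for 4 of the 8 genes, Hand2, Isl1, Prrx1 and Nkx2-5, in RefSeq on GRCm38.p6. The 2 shown belong to tested members that moved in opposite directions when CHIR99021 was added, Isl1 down and Prrx1 up. Each is the stretch just upstream of the gene model, on the gene's own strand. Isl1 lies at chr13:116309690-116309938 on the minus strand and Prrx1 at chr1:163313711-163313900 on the minus strand. Capitals mark GGCGCC, a GC-rich element bound by SMAD proteins (the effectors of BMP receptors), and GATAA, the core bound by GATA factors, on either strand.
Isl1: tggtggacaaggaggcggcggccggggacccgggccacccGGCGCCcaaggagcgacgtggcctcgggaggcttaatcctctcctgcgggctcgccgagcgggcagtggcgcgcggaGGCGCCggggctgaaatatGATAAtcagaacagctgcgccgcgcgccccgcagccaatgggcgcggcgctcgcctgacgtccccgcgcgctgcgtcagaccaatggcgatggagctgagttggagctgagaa
Prrx1: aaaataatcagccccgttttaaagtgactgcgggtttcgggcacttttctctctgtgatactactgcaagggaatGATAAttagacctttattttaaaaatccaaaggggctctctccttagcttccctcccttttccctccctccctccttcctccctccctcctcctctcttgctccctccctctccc
The Isl1 stretch held GGCGCC at 2 places and GATAA at 1. Over the same number of bases, 9.52% of 32851 promoters held the first and 22.5% the second. The Prrx1 stretch held GATAA at 1 place and no GGCGCC, which 18.7% and 6.61% of promoters held over its shorter length. CTTTGAT and CTTTGAA, forms of the TCF/LEF site of WNT signalling, were in neither stretch. A match is a run of letters and not a measured binding site.

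Hand1 (chr11:57828705-57832818, minus strand) encodes a basic helix-loop-helix factor of the extraembryonic mesoderm, the lateral plate and the left ventricle. At 96 h it was at 9.75 TPM in replicate 1, 0.977 in replicate 2 and 0.445 in replicate 3. It was listed at 0 in all 3 Gastruloid libraries and in all 3 TLSMGCL libraries. Between these came TLSMG, with 0.794, 0.689 and 0.309 TPM, and TLSMGC, with 0.523, 1.09 and 0.703 TPM. Every TLSMG and TLSMGC library thus showed some Hand1 where every library without Matrigel at 120 h, and every library with LDN, was listed at 0.

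A fold against a group listed at 0 cannot be given, and the fitted difference depends on the added 1 TPM. Gastruloid against 96h came to -1.65 (SE 0.51, adjusted p = 0.0195), and to -4.17 with 0.1 TPM added instead. Without 96h replicate 1 it was -0.76 (adjusted p = 0.00622), less in size though still called, and in a fit of these groups alone the adjusted p was 0.0978. The fitted difference was -0.66 for TLSMGCL against TLSMG (adjusted p = 0.311) and -0.81 for TLSMGCL against TLSMGC (adjusted p = 0.556). Without 96h replicate 1 these differences, which do not involve that library, stayed the same, while the adjusted p became 0.00561 and 0.0314. That library widens the spread the model shares among the groups, and in the same way TLSMG against Gastruloid (0.66) moved from an adjusted p of 0.324 to 0.00722. No neighbours in the order of group means, 96h, TLSMGC, TLSMG and then both groups at 0, differed past the threshold with all libraries in and 1 TPM added. With 0.1 TPM added, TLSMG against Gastruloid came to 2.72 (adjusted p = 0.0148) and TLSMGCL against TLSMG to -2.72 (0.0123), and fits of the compared groups alone called both (0.0143 and 0.0133).

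Hand2 (chr8:57320983-57324633, plus strand), its relative in the limb bud, the branchial arches and the right ventricle, was at 5.31 TPM in 96h replicate 1 and at 0.396 and 0.131 TPM in replicates 2 and 3. At 120 h it reached at most 0.972 TPM, in TLSMG replicate 1, and was listed at 0 in Gastruloid replicate 1 and TLSMGC replicate 1. The level in 96h replicate 1 was 20.1 times the mean of the other 96h libraries, and that of Hand1 13.7 times. Fitted with no minimum on TPM, Hand2 was called in none of the comparisons, with an adjusted p of 0.237 for Gastruloid against 96h and 0.229 for TLSMGCL against 96h. Hand2os1 and Gata6os, noncoding RNAs beside Hand2 and Gata6, and Fendrr, beside Foxf1, stayed under 1 TPM in all 15 libraries.

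Gata6 (chr18:11052508-11085635, plus strand) encodes a zinc finger factor of heart progenitors and endoderm. It was at 18.4, 6.84 and 5.86 TPM at 96 h. In Gastruloid it was at 1.31, 1.65 and 1.38 TPM, and in TLSMG at 4.97, 3.71 and 4.53 TPM. Each TLSMG library lay above each Gastruloid library and below each 96h library. In TLSMGC it was at 1.84, 3.61 and 0.654 TPM, all below TLSMG but widely spread, and in TLSMGCL at 0.514, 0.860 and 0.455 TPM.

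Gata6 fell from 96h to Gastruloid by 2.05 on the log2 scale (SE 0.37, adjusted p = 0.000548), in means from 10.4 ± 6.96 to 1.45 ± 0.183 TPM (SD, n = 3 each). The fall held under all 23 alternatives, without 96h replicate 1 included. It was higher in TLSMG than in Gastruloid by 1.14 (SE 0.37, adjusted p = 0.0251), 3.04-fold in means, but this call was lost without any one of 4 libraries: Gastruloid replicate 1 (adjusted p = 0.0690) or 3 (0.0562), and TLSMG replicate 1 (0.0688) or 3 (0.0641). It was also lost with FPKM in place of TPM (0.0561) and with no minimum on TPM (0.0667). TLSMG against 96h came to -0.91 (adjusted p = 0.0556), just outside the threshold, and was called under 8 of the 23 alternatives, with adjusted p-values from 0.0256 up to 0.266 over all 23. The highest was without 96h replicate 1, where the difference was -0.45.

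With CHIR99021 in the Matrigel, Gata6 averaged 2.04 ± 1.49 TPM against 4.40 ± 0.641 TPM without (SD, n = 3), a difference of -0.95 that missed the threshold (adjusted p = 0.0533). It was called under 5 of the 23 alternatives: without TLSMGC replicate 2 (-1.31, adjusted p = 0.0129), without 96h replicate 1 (0.0151) or 3 (0.0446), with 0.1 TPM added (-1.35, 0.0456) and with the replicate number as a block (0.0483). With LDN as well, Gata6 averaged 0.610 ± 0.219 TPM (SD, n = 3). This was 7.22-fold below TLSMG (-1.75, SE 0.37, adjusted p = 0.00175), a call kept under all 23 alternatives. Against TLSMGC the difference was -0.80 (adjusted p = 0.376), with 1 overlap: TLSMGC replicate 3 lay below TLSMGCL replicate 2. In the order 96h, TLSMG, TLSMGC, Gastruloid and TLSMGCL, no group differed past the threshold from its neighbour.

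Gata4 (chr14:63198922-63271692, minus strand), the partner of Gata6 in heart and endoderm, followed a flatter course. At 96 h it was at 6.84, 1.91 and 1.74 TPM. At 120 h it was at 0.642, 0.922 and 1.22 TPM in Gastruloid, 2.10, 1.71 and 1.48 TPM in TLSMG, 0.585, 1.29 and 0.556 TPM in TLSMGC, and 0.677, 0.616 and 0.879 TPM in TLSMGCL. TLSMG was thus the highest group at 120 h in TPM, with no library of another 120 h group reaching its lowest. This order rests on little coverage: 0.316 to 0.490 reads over the exons in TLSMG, and at most 0.325 in the other 120 h groups. Gata4 fell from 96h to Gastruloid by 1.05 (SE 0.31, adjusted p = 0.0157), a call lost without Gastruloid replicate 1 (adjusted p = 0.0578) and in a fit of these groups alone (0.0721), and kept without 96h replicate 1 at a smaller difference of -0.56 (adjusted p = 0.0335). No difference among the 120 h groups was called with all libraries in. For TLSMGC against TLSMG the difference was -0.63 with an adjusted p of 0.126, and for TLSMGCL against TLSMG -0.68 with 0.0934. For TLSMG against Gastruloid it was 0.52 with 0.201. Without 96h replicate 1 the adjusted p became 0.00987, 0.00579 and 0.0257 at the same differences, and in fits of the compared groups alone 0.0329, 0.00823 and 0.0343.

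Foxf1 (chr8:121084386-121088144, plus strand) encodes a forkhead factor needed in extraembryonic and lateral plate mesoderm and in the mesenchyme of gut and lung. It was at 14.2, 9.07 and 7.66 TPM at 96 h. It was at 4.86, 6.76 and 6.02 TPM in Gastruloid and at 7.44, 4.68 and 6.29 TPM in TLSMG, 2 overlapping ranges. TLSMGC followed with 3.48, 3.13 and 3.12 TPM, and TLSMGCL with 0.626, 0.683 and 0.793 TPM. The last 2 groups did not overlap with each other or with any other group.

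With LDN, Foxf1 averaged 0.701 ± 0.0851 TPM against 3.24 ± 0.205 TPM without it (SD, n = 3), 4.63-fold lower. The fitted difference was -1.32 (SE 0.19, adjusted p = 0.00461), and the call was kept under all 24 alternatives, with adjusted p-values of 0.000461 to 0.0237. Against TLSMG, Foxf1 in TLSMGCL was 8.75-fold lower (-2.05, adjusted p = 2.04e-06), also under all 24. With CHIR99021 alone it was 1.89-fold below the 6.13 ± 1.39 TPM (SD, n = 3) of TLSMG (-0.73, SE 0.19, adjusted p = 0.00771), a call lost only when GC content and gene length were regressed out (adjusted p = 0.0746).

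From 96h, where Foxf1 averaged 10.3 ± 3.44 TPM (SD, n = 3), it fell by 0.68 to Gastruloid (SE 0.19, adjusted p = 0.0110) and fell by 0.64 to TLSMG (SE 0.19, adjusted p = 0.0139). Both calls were lost without 96h replicate 1, at differences of -0.45 (adjusted p = 0.0505) and -0.41 (0.0659). The first was lost also without Gastruloid replicate 1 (0.0512), and the second without TLSMG replicate 2 (0.0697) or in a fit of these groups alone (0.0586). TLSMG and Gastruloid did not differ past the threshold (0.04, adjusted p = 0.882), and the sign of that small difference flipped under median-of-ratios scaling, with FPKM and with the GC and length correction. In the order 96h, TLSMG, Gastruloid, TLSMGC and TLSMGCL, each neighbouring pair except TLSMG and Gastruloid was called.

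Isl1 (chr13:116298281-116309689, minus strand) encodes a LIM homeodomain factor of the second heart field, the pool of progenitors that extends the heart tube. It was at 4.45, 3.21 and 3.01 TPM at 96 h and at 2.93, 2.04 and 2.23 TPM in TLSMG. In Gastruloid it was at 0.538, 0.948 and 0.640 TPM, in TLSMGC at 0.119, 1.05 and 0.443 TPM, and in TLSMGCL at 0.176, 0.219 and 0.458 TPM. All libraries of these 3 groups lay below every 96h and TLSMG library. TLSMGC overlapped with Gastruloid and with TLSMGCL, and these did not overlap with each other.

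In means, Isl1 was 3.39-fold higher in TLSMG (2.401 ± 0.470 TPM) than in Gastruloid (0.709 ± 0.214 TPM, SD, n = 3), with a fitted difference of 0.99 (SE 0.20, adjusted p = 0.00223). With CHIR99021 in the Matrigel it fell by 1.18 (SE 0.20, adjusted p = 0.000487), to 0.537 ± 0.472 TPM (SD, n = 3). From 96h to Gastruloid it fell by 1.41 (SE 0.20, adjusted p = 0.000102). These 3 calls held under all 23 alternatives. LDN on top of CHIR99021 gave -0.22 (adjusted p = 0.715), and TLSMG against 96h gave -0.42 (adjusted p = 0.111), which was called under median-of-ratios scaling (0.0498) and with FPKM (0.0379).

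Isl1 is also a neuron gene, so neuronal markers were read beside it. Of 9 markers of motor and sensory neurons, Chat and Lhx3 reached at most 0.122 and 0.0787 TPM in any library, and Isl2 at most 0.445 TPM. Others were present and moved. From 96h to TLSMG, Olig2 and Pou4f1 rose (1.18 and 0.83). With CHIR99021, Olig2 fell from a mean of 2.56 to 0.0372 TPM (-1.78, adjusted p = 2.30e-07 by limma). It was the 1 called there of the 3 tested, in the comparison in which Isl1 fell. Isl1 fell also between 96h and Gastruloid, but there Olig2 and Pou4f1 rose (1.51 and 0.67), Olig2 to its highest group mean of 3.47 TPM. Between 96h and TLSMGC, where Isl1 fell as well, Pou4f1 rose (1.16) and Olig2 fell (-0.59). The summed level of all 9 lay between 6.75 and 10.9 TPM at 96 h, between 11.4 and 12.5 TPM in Gastruloid and between 9.40 and 13.0 TPM in TLSMG. It lay between 5.89 and 7.10 TPM in TLSMGC and between 7.94 and 8.29 TPM in TLSMGCL, with Mnx1, also active in other embryonic tissue, at up to 7.12 TPM. The part of neurons in the level of Isl1 was not tested.

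Prrx1 (chr1:163245119-163313710, minus strand) encodes a paired-type homeodomain factor of limb bud and head mesenchyme. It was at 2.24, 1.17 and 0.601 TPM at 96 h and at 1.18, 1.34 and 1.39 TPM in Gastruloid. In TLSMG it was at 9.29, 6.60 and 5.00 TPM, in TLSMGC at 21.7, 11.8 and 12.7 TPM, and in TLSMGCL at 11.4, 6.48 and 13.0 TPM. Every library grown in Matrigel lay above every library grown without it. The TLSMGC libraries all lay above those of TLSMG, and the TLSMGCL libraries overlapped with both.

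Prrx1 averaged 6.96 ± 2.16 TPM in TLSMG and 1.31 ± 0.111 TPM in Gastruloid (SD, n = 3), a 5.33-fold rise (1.75, SE 0.30, adjusted p = 0.000765) that held under all 24 alternatives. The rise from 96h to TLSMG was 1.79 (SE 0.30, adjusted p = 0.000278), again under all 24. With CHIR99021 it was a further 2.21-fold higher, at 15.4 ± 5.44 TPM (SD, n = 3; 1.03, SE 0.30, adjusted p = 0.0140), but the call was lost without TLSMGC replicate 1 (adjusted p = 0.0650) or TLSMG replicate 3 (0.0640). With LDN it averaged 10.3 ± 3.40 TPM (SD, n = 3), which differed past the threshold neither from TLSMGC (-0.54, adjusted p = 0.493) nor from TLSMG (0.49, adjusted p = 0.199). With GC content and gene length regressed out, the second was 0.95 and was called (adjusted p = 0.0143). Gastruloid and 96h did not differ past the threshold (0.04, adjusted p = 0.926).

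Nkx2-5 (chr17:26838664-26841565, minus strand), the homeodomain factor that marks committed heart progenitors, was listed at 0 in all 96h libraries. Its highest value was 0.401 TPM, in Gastruloid replicate 1, and it was listed at 0 in Gastruloid replicate 2 and in TLSMG replicates 1 and 3. In TLSMGC it was at 0.132, 0.0848 and 0.0924 TPM and in TLSMGCL at 0.0866, 0.0902 and 0.126 TPM. In the TLSMGC and TLSMGCL libraries its coverage was 0.196 to 0.198 reads over the exons, so no order of the groups was read from this gene.

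Of 13 contractile and muscle genes active in the heart, 6 were tested. In Gastruloid against 96h, where 5 of the members fell, 3 of these 6 rose: Myh7, a myosin heavy chain gene, by 1.32 to a mean of 3.90 TPM, Actc1, the cardiac actin gene, by 1.00 to 19.2 TPM, and Tnnt2, the cardiac troponin T gene, by 1.00 to 1.74 TPM. Tnni1 and Myl4 fell there (-1.42 and -1.27), Myl4 being another gene tested only through its level at 96 h. The atrial peptide genes Nppa and Nppb were listed at 0 in 14 of 15 libraries each, Ttn (titin) reached at most 0.00491 TPM and Myh6 0.768 TPM. Myl7, the atrial myosin light chain, was at 5.47, 1.96 and 1.96 TPM at 96 h and at 0 in 11 libraries. Tnnt2 was the one of the 6 called with LDN. It was at 9.11, 5.85 and 4.08 TPM in TLSMGC and at 16.6, 12.6 and 16.2 TPM in TLSMGCL, a rise of 1.18 (adjusted p = 0.0483) that was lost without TLSMGC replicate 2. Tnnt2 thus rose with LDN in the same comparison in which Foxf1 fell.

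In 96h replicate 1, other genes of heart, endoderm and mesoderm were high along with the members. Over all tested genes, the ratio of that library to the mean of the other 96h libraries had a median of 0.993. The ratio was 13.7 for Hand1, 3.75 for Gata4, 2.89 for Gata6, 2.54 for Prrx1, 1.70 for Foxf1 and 1.43 for Isl1. It was 10.7 for Tbx20, 7.70 for Gata5 and 5.39 for Tbx1, all heart or pharyngeal regulators at under 2 TPM, and 2.80 for Myl7. The BMP ligand gene Bmp4 stood at 2.26, the endoderm genes Cer1 and Foxa2 at 2.55 and 2.16, and the endothelial receptor gene Kdr at 2.26. Mesp1, a gene of the earliest heart precursors, stood at 0.901 and Tbx6, of presomitic mesoderm, at 0.712. The part of these other cell types in the members' levels was not tested.

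**Figure D3:**
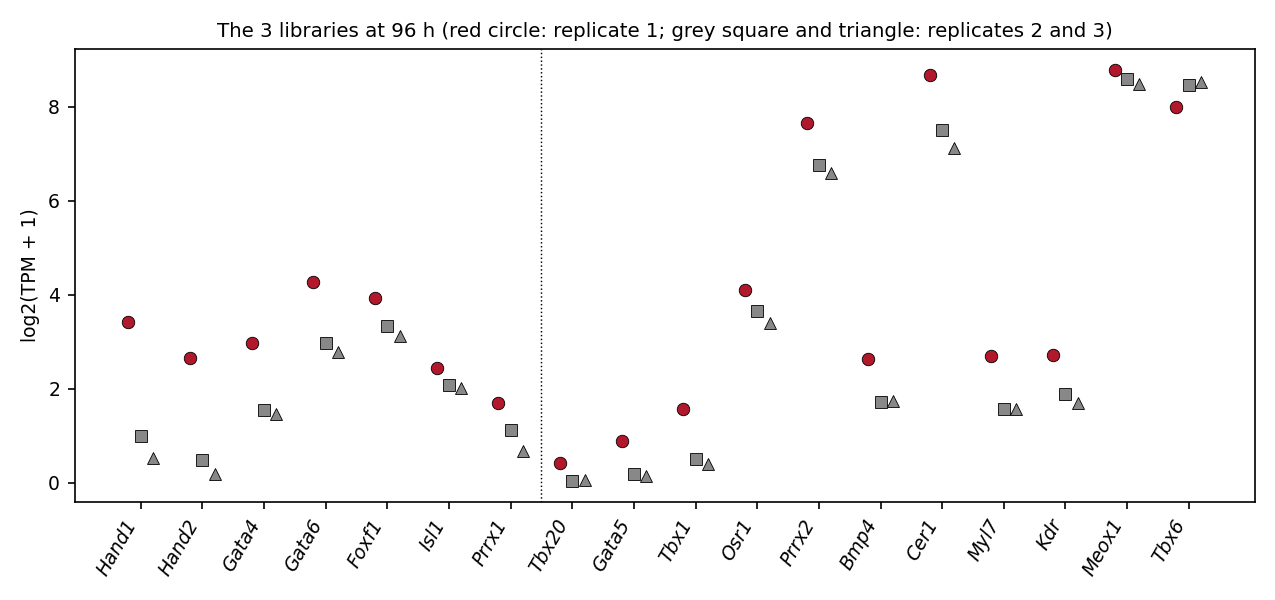
Level as log2(TPM + 1) (vertical axis) of 7 members, left of the dotted line, and of 11 genes from the marker lists, right of it, in the 3 libraries at 96 h, with replicate 1 as red circles and replicates 2 and 3 as grey squares and triangles. Replicate 1 is the highest for all 7 members and for Cer1 (404 TPM), and the lowest for Tbx6.

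A wider list of 20 lateral plate and cardiac regulators, of which 12 were tested, was read beside the members. From 96h to Gastruloid, 9 of 12 fell and 0 rose, among them Mesp1 (-5.51) and Osr1 (-2.62), a gene of lateral and intermediate mesoderm. Of the 9, Foxl1 and Myocd averaged under 1 TPM over the 120 h libraries and were tested only through their levels at 96 h, so their fall, like that of Hand1 and Isl1, was favoured by the minimum on TPM. Of 8 paraxial (somite-forming) mesoderm genes, 3 fell from 96h to Gastruloid and 3 rose, with Tbx6 at -6.44, Aldh1a2 at -4.83 and Uncx at 2.42. In TLSMG against Gastruloid, 5 of the 12 regulators rose and 2 fell: Osr1 by 2.37, Mef2c, a heart and vessel factor, by 1.61, and Prrx2, the paralogue of Prrx1, by 0.78. Under median-of-ratios scaling 3 rose and 2 fell. With CHIR99021, 5 fell and 1 rose, with Prrx2 at -2.37, Osr1 at -1.71 and Mef2c at -1.32, and Mesp1 the one that rose (1.52). Of the 8 paraxial genes 3 rose there, Tbx6 the most (3.19), and 3 fell. Mesp1 and Tbx6 thus both fell from 96h to Gastruloid and both rose with CHIR99021. The cell type in which Mesp1 was expressed was not tested.

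Prrx2 and Prrx1 therefore moved apart. Prrx2 was at 125, 111 and 100.6 TPM in TLSMG and at 18.0, 25.1 and 19.8 TPM in TLSMGC (adjusted p = 1.47e-06), where Prrx1 rose from 6.96 to 15.4 TPM in means. The 2 groups overlapped for neither gene. With LDN on top of CHIR99021, Osr1 fell from 1.498, 3.35 and 2.59 TPM to 0.0328, 0.0617 and 0.0459 TPM (-1.70, adjusted p = 0.00302). It was the one regulator of the 12 to fall there, as Foxf1 was among the members, and Smarcd3 the one to rise (0.35, adjusted p = 0.0466, lost without TLSMGC replicate 2).

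BMP signalling is the pathway that LDN blocks. Of 6 ligand genes 4 were tested. From 96h to Gastruloid 3 fell, Bmp4 (-0.78), Bmp2 (-0.56) and Bmp7 (-0.41), and without 96h replicate 1 the calls for Bmp4 and Bmp7 were lost. With CHIR99021, Bmp7 and Bmp5 rose (1.13 and 0.92) and Bmp2 fell (-0.89). With LDN, Bmp7 rose from 25.4, 20.5 and 20.4 TPM to 36.8, 28.0 and 36.5 TPM (0.59, adjusted p = 0.0331), a call lost without TLSMGC replicate 2.

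Of 10 BMP response genes, 8 were tested. In TLSMG against Gastruloid 6 rose and 0 fell, led by Msx1 (2.33), a homeobox gene, and the Id genes Id1 (1.34) and Id2 (1.08), which encode inhibitors of helix-loop-helix factors. Gata6, Isl1 and Prrx1 rose in the same comparison. Of all tested genes, 31.5% were called higher there and 7.87% lower. Higher genes made up 80% of all calls there, and 51.6% under median-of-ratios scaling. With CHIR99021, Id3 (-1.66), Id2 (-1.22), Id1 (-1.20) and 2 others fell while Msx1 (1.13) and Msx2 (0.74) rose. With LDN on top, 3 fell and 0 rose. Id3 fell from 63.3, 70.1 and 73.2 TPM to 17.9, 23.0 and 19.4 TPM (-1.73, adjusted p = 4.73e-05). Id1 fell from 29.9, 33.2 and 33.8 TPM to 14.5, 14.7 and 12.8 TPM (-1.15, adjusted p = 0.000509). Msx1 fell from 35.5, 44.3 and 42.3 TPM to 17.6, 19.9 and 15.5 TPM (-1.16, adjusted p = 0.0125), a call lost without TLSMGC replicate 2. The list's median was -0.64 where that of all genes was -0.04 and that of the tested members -0.67.

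Foxf1 and the BMP response genes were also set side by side in other comparisons. From 96h to TLSMG, 5 of the 8 rose and 0 fell, while Foxf1 fell. Between TLSMG and Gastruloid 6 rose, while Foxf1 differed by 0.04. Among Hedgehog genes, another pathway upstream of Foxf1 in gut mesenchyme, 4 of 7 were tested and 0 were called by limma with LDN against CHIR99021 alone, with 3 at an unadjusted p under 0.05 (all lower, Gli1 and Ptch1 among them). Without 96h replicate 1, Gli1 was called. With CHIR99021, Gli1, a target and effector of the pathway, fell from 7.65, 6.497 and 8.49 TPM to 3.47, 2.80 and 2.62 TPM (-1.11, adjusted p = 3.36e-05). Its lowest values, 1.84, 1.62 and 1.55 TPM, were in TLSMGCL. The part of BMP or Hedgehog signalling in the level of Foxf1 was not tested.

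**Figure D4:**
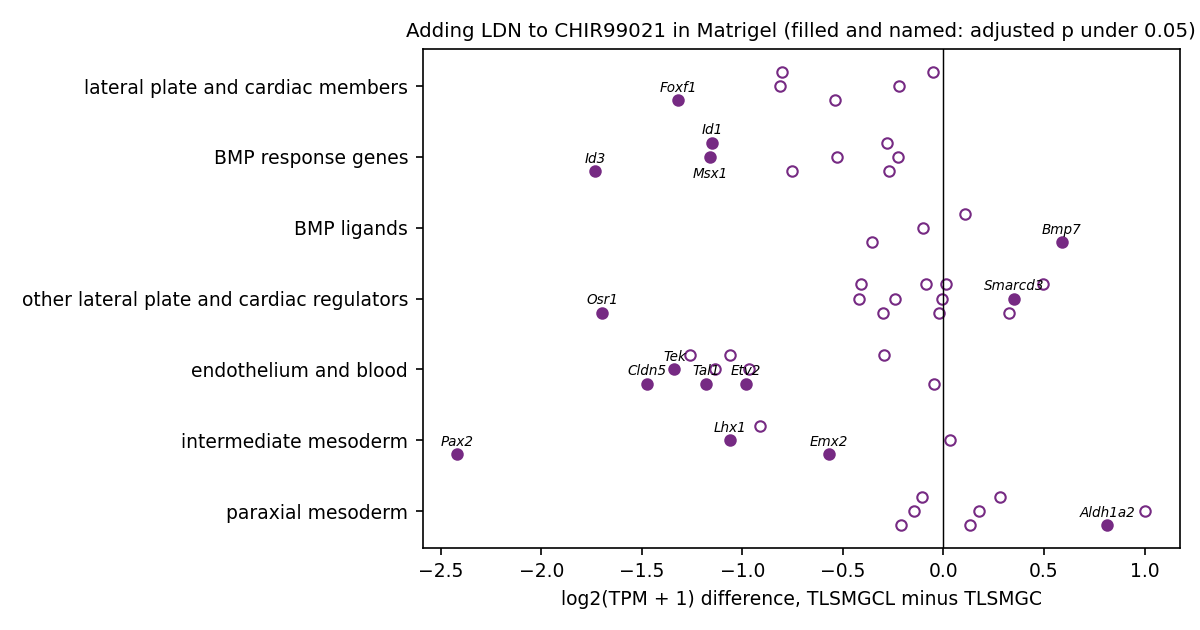
Fitted log2(TPM + 1) differences, TLSMGCL minus TLSMGC (horizontal axis), of every tested gene of 7 lists (rows), with called genes filled and named. Foxf1 at -1.32 is the filled member, and Id3 at -1.73, Osr1 at -1.70 and Pax2 at -2.42 are the lowest called genes of their rows.

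Endothelial cells and endoderm could both be in these pools, and their markers were read beside the members. Of 12 endothelium and blood markers, 10 were tested. Their summed level was lowest at 96 h (10.8 to 16.1 TPM) and in TLSMGCL (12.7 to 21.1 TPM). Gastruloid libraries had 35.9 to 47.0 TPM and TLSMGC libraries 26.6 to 84.7 TPM, while TLSMG libraries stood far above, at 267 to 321 TPM. In TLSMG against Gastruloid 8 of 10 rose and 0 fell, led by Kdr (3.83), Tek (2.84) and Cldn5 (2.53). Hbb-bh1, an embryonic globin gene, was at 0 in all 15 libraries and Gata1 in 14. In TLSMGCL against TLSMGC 4 of 10 fell, Cldn5 (-1.47), Tek (-1.34), Tal1 and Etv2, and 0 of 10 were called without TLSMGC replicate 2.

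At 120 h, Gata6 ran beside these markers. In TLSMGC the marker sums were 49.5, 84.7 and 26.6 TPM in replicates 1, 2 and 3, and Gata6 was at 1.84, 3.61 and 0.654 TPM, in the same order. Among the 120 h groups, both were highest on average in TLSMG and lowest in TLSMGCL. This was not particular to Gata6: Gata4, Foxf1 and Isl1 were also highest in TLSMG and lowest in TLSMGCL. Gata4 had the same order in TLSMGC too (0.585, 1.29 and 0.556 TPM). TLSMGC replicate 2 was the library with 117 genes at least 2 times above both others of its group. At 96 h Gata6 and the marker sums parted: Gata6 was at 5.86 to 18.4 TPM with marker sums of 10.8 to 16.1 TPM. The part of endothelium in the level of Gata6 was not tested.

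**Figure D5:**
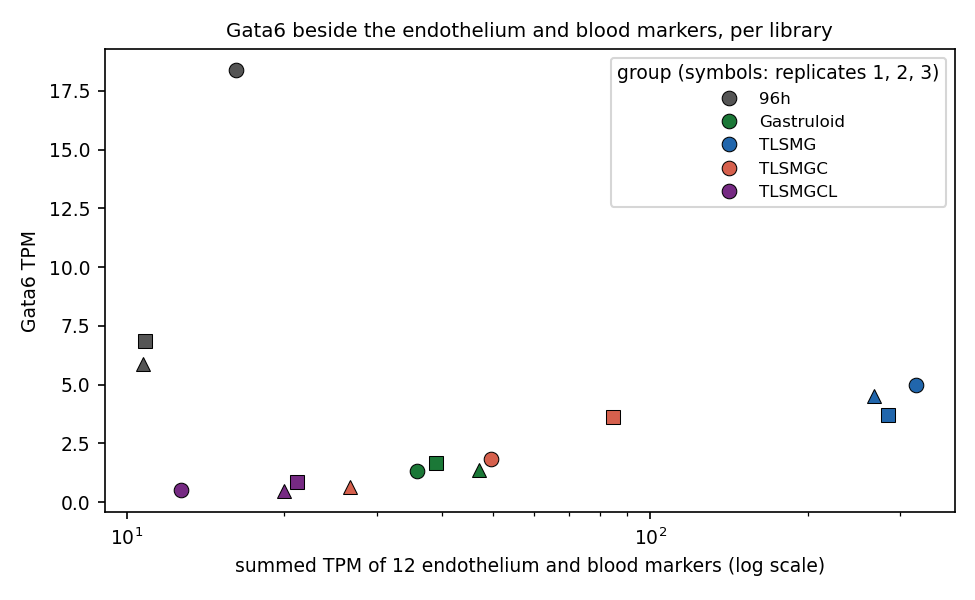
Gata6 TPM (vertical axis) against the summed TPM of 12 endothelium and blood markers (horizontal axis, logarithmic) in each of the 15 libraries, coloured by group with a symbol per replicate. The 96h libraries lie at the upper left (sums of 10.8 to 16.1 TPM), while at 120 h TLSMG lies at the right (267 to 321 TPM) and TLSMGCL at the lower left.

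The 10 markers of definitive endoderm, where Gata4 and Gata6 also act, summed to 357 to 799 TPM at 96 h, with the highest value in replicate 1, to 156 to 214 in Gastruloid and 101.4 to 158 in TLSMG. They summed to 50.9 to 88.8 TPM in TLSMGC and 58.5 to 81.8 TPM in TLSMGCL. Cer1 and Trh led the sum at 96 h, with means of 240 and 196 TPM, where no other marker averaged above 25.3 TPM. Between 96h and Gastruloid these 2 fell (-3.12 and -1.69), 2 rose (Foxa1 and Krt18) and 6 were not called. Between 96h and TLSMG the same 2 fell (-4.12 and -3.55), 2 rose (Foxa1 and Spink1) and 6 were not called. The fall of the sum from 96 h thus describes Cer1 and Trh and not the list as a whole. The sums for Gastruloid and TLSMG overlapped, where Gata6 did not, and 0 of 10 markers were called by limma between TLSMGCL and TLSMGC, with 1 at an unadjusted p under 0.05 (Trh, higher). Of 10 extraembryonic endoderm markers 7 stayed under 1 TPM in all 15 libraries, Afp at 0 in each. The part of endoderm in the levels of Gata4 and Gata6 was not tested.

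The genes whose pattern was most like each member over the 15 libraries were found by Pearson's r of log2(TPM + 1), as a description over libraries that share groups. For Gata6 they were Car8 (0.965), Tgfb1 (0.950) and Sim1 (0.933). For Isl1 they were Eif4e3 (0.966), Tgfb1 (0.951) and Sema6d (0.950). Tgfb1, the gene of the growth factor TGF-beta 1, was thus shared by both, and Gata6 and Isl1 correlated at 0.923. For Gata4 they were Ripk2 (0.916), Gata6 (0.910) and Car8 (0.899). For Foxf1 they included Tmc6 (0.938) and Dact1 (0.936). For Prrx1 they were Nrp2 (0.964), Stard4 (0.957) and Vgll4 (0.955), and Prrx1 correlated with Foxf1 at -0.62. For Hand1 they were Alx1 (0.896), Gm27907 (0.887) and Ripk2 (0.882). Without 96h replicate 1 these fell to 0.810, -0.05 and 0.649, so the likeness of Gm27907 to Hand1 rested on that library.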

How the data were processed

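RNA from 15 pools of structures was sequenced. Per the submitters' processing notes, cutadapt 2.4, STAR 2.7.3a and StringTie 2.0 were used, with no roles given. The deposited TPM and FPKM values, and the deposited coverage signal (mean read depth over exons), are those of StringTie's gene abundance tables, one per library, per the file headers. Rows of one gene ID were summed. The build is not given in the sources used here. Of 54446 gene IDs, 54409 matched GENCODE M21 (GRCm38), and the start and end were equal for 53499, with 6 of the 8 members among them. No counts were used, so no confidence interval or detection floor was computed. P-values measure the spread between libraries labelled as biological replicates. No batch is labelled.

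Groups were compared by limma (version 3.58.1, R 4.3.3) on log2(TPM + 1), for 14290 genes with a mean of at least 1 TPM. All 5 groups entered 1 model, with a mean trend and two-sided p-values adjusted within each comparison. Fold changes on this scale understate changes of low genes. The procedure was tested on simulated data. Median-of-ratios scaling shifted the typical gene: the median over all tested genes (log2) went from 0.14 to -0.01 (TLSMG against 96h), 0.13 to -0.02 (TLSMG against Gastruloid), -0.16 to -0.01 (TLSMGC against TLSMG) and -0.18 to -0.0019 (TLSMGCL against TLSMG). Calls were 4792 higher and 1785 lower for TLSMG against 96h (3194 and 3299 so scaled), 4497 and 1125 for TLSMG against Gastruloid (2763 and 2594), 1490 and 4352 for TLSMGC against TLSMG (2621 and 2685), and 1330 and 5086 for TLSMGCL against TLSMG (2734 and 2865). For TLSMGCL against TLSMGC they were 58 and 111 (103 and 99).

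The members, the marker lists and the tests were chosen with earlier results of these data known. All members are named. From each other list the text names at most the 3 largest called changes in each direction, markers near 0 and, in the description of 96h replicate 1, genes chosen after their values were seen. For each tested member up to 3 genes most like it are named, and a few genes that these rules select are not reported here. Python 3.11.15 with numpy 2.4.6, pandas 2.3.3 and matplotlib 3.10.9 was used for loading and plots. The alternatives were other pseudocounts, minimum levels, scalings and models, and each library left out in turn. The 5 single-cell samples were not analysed here. The same-numbered libraries of different groups did not deviate together (mean r = -0.02 over 30 pairs).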

Additional observations from a re-analysis of the deposited data

How the results depend on the processing

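Of 840 differences of single members under alternatives, 792 kept direction and call, 17 lost a call, 31 gained one and 0 of the called ones reversed. The members called, 5 of 6 for Gastruloid against 96h, were 1 of the 2 members left at a minimum mean of 5 TPM and 3 when fitted on those groups only. For TLSMG against 96h the 2 called were 4 under median-of-ratios scaling, 4 with FPKM and 1 on those groups only. For TLSMG against Gastruloid the 3 called were 1 at 5 TPM and 5 on those groups only. For TLSMGCL against TLSMG the 3 called were 5 with a pseudocount of 0.1, 1 at 5 TPM and 5 on those groups only. Both members left at 5 TPM passed each F test, so the counts of 6 and 4 became 2. The smaller counts at 5 TPM come from fewer members tested, and the other causes were not tested. Over all genes, the 5622 called between TLSMG and Gastruloid became 3127 with the GC and length correction, and the 169 between TLSMGCL and TLSMGC became 260 with it and 42 on those groups only.

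With each library left out in turn, genes called ranged from 4905 to 6328 (Gastruloid against 96h), 5651 to 6906 (TLSMG against 96h), 4264 to 5920 (TLSMG against Gastruloid), 4703 to 6344 (TLSMGC against TLSMG), 5080 to 6590 (TLSMGCL against TLSMG) and 56 to 198 (TLSMGCL against TLSMGC). In the same order, members called ranged from 3 to 5, 1 to 4, 2 to 5, 2 to 5, 3 to 5 and 1 to 2. Members differing among the 4 groups at 120 h ranged from 4 to 6, and among the 5 groups from 5 to 6.

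With the replicate number as a block, genes called were 5659, 6381, 5382, 5599, 6187 and 122 and members called 5, 3, 3, 4, 3 and 1 in that order, with 4 and 6 members in the F tests. The block added calls for Gata6 in TLSMG against 96h (adjusted p = 0.0498) and in TLSMGC against TLSMG (0.0483). Same-numbered libraries correlated in their deviations at -0.18 to 0.10, so the numbers are not shown to pair them.

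Members under 1 TPM are limited by depth, since a coverage of 1 read was worth 0.327 to 0.664 TPM by the figure taken per library. Gata4 is limited at higher TPM too, with a coverage under 1 read in every library but 96h replicate 1.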

Other observations

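Intermediate mesoderm, the strip beside the lateral plate that forms kidney and gonad, also had genes that fell with LDN. Of 6 markers 5 were tested, and in TLSMGCL against TLSMGC 3 fell and 0 rose. Pax2, a regulator of the kidney duct, fell from 5.38, 7.16 and 4.06 TPM to 0.257, 0.191 and 0.152 TPM (-2.42, adjusted p = 6.43e-06), with no overlap between the groups. Lhx1 fell from 15.6, 15.7 and 11.7 TPM to 7.05, 5.16 and 6.82 TPM (-1.06, adjusted p = 0.00101), and Emx2 by 0.57, a call lost without TLSMGC replicate 2. With CHIR99021 in the Matrigel, Pax2, Emx2 and Lhx1 had risen (1.06, 1.01 and 0.77 against TLSMG), where Foxf1 and Isl1 fell. Wt1, a gene of kidney and coelomic lining, fell there by 2.82. Of 8 paraxial mesoderm genes, 1 rose with LDN (Aldh1a2) and 0 fell.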
